A study of Homo sapiens with 4 samples.

Results

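The genes described here are the integrin chains and the intracellular proteins of focal adhesions, 41 in all, taken from a list of symbols made up of 21 integrin chains and 20 intracellular members. Of these, 37 had a named probe set among the 17687 named genes of the array, and the probe set brightest on average was used for each gene. ITGA1, TLN1, FLNA and TNS1 were not analysed here. Genes whose mean over the arrays fell below 4.90, the 30th percentile over the named genes, were not tested, which left 31 members among 12381 tested genes. The 6 measured members without a test, ITGA5, ITGA8, ITGA9, ITGA11, ITGB2 and ITGB7, were all integrin chains.

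RNA came from Li-7 and HEP-G2, established human liver cancer lines grown in RPMI-1640 and in DMEM respectively, each with fetal bovine serum. Cells of each line received a mimic of the microRNA miR-4730, a synthetic RNA given at 3 nM with a lipid reagent 24 h after seeding, or negative control oligonucleotide #1, and each of the 4 groups had 1 Affymetrix array. No group was replicated, line and medium cannot be told apart, and the number of arrays limits the precision of every value. Values are those deposited for the probe sets, on a log2-like scale, differences are in the same units, and levels of different genes are not ranked against each other because each probe set has its own response.

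Integrins are transmembrane receptors that hold cells to the extracellular matrix, each built from an alpha and a beta chain. The pairing of the chains sets the ligand: some pairs bind collagen, some laminin, and some the RGD motif of fibronectin and vitronectin. Inside the cell, talins and kindlins switch the receptor on by binding the beta tail, the kinases FAK and SRC signal from it with the scaffolds paxillin and p130Cas, and vinculin, alpha-actinin, filamin, tensin and zyxin tie it to actin. In the liver, hepatocytes are known for a narrow set of integrins, and laminin-binding chains are a feature of bile duct cells.

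The mature miR-4730, read from RefSeq annotation on GRCh38.p14, is shown because the mimic is the treatment in every comparison below. It lies on the plus strand at chr17:80419427-80419449 and is 23 bases long, and the capitals mark its seed, bases 2 to 8.
hsa-miR-4730: cUGGCGGAgcccauuccaugcca
Of 2370 mature human microRNAs in that annotation, 1, miR-4730 itself, has this seed. No search for seed matches in transcripts of the members was made here.

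The study names HMGA1, a chromatin protein, as the target of miR-4730, and its value checked the labels. It went from 14.93 to 10.91 in Li-7 and from 14.79 to 11.61 in HEP-G2, control to mimic (mean change -3.59, SE 0.29, limma adjusted p = 0.0241). Background was set for each array at the 95th percentile of its 612 negative control sets. In Li-7 this was 8.72 (control) and 7.99 (mimic), in HEP-G2 8.35 (control) and 8.20 (mimic). Of the 37 members, 25 lay above it in Li-7 with control and 25 with mimic, and 20 in HEP-G2 with control and 21 with mimic. The shares of all named genes above it were 36.7%, 42.7%, 39.4% and 40.0% in the same order. Of 11 measured hepatocyte markers, all 11 were above background in HEP-G2, but only 1 (AMBP) was on the Li-7 control array and 2 (AMBP and SERPINA1) were on the Li-7 mimic array. In Li-7 the defining markers were thus mostly under background, with albumin at 7.30 and 7.19 and alpha-fetoprotein at 4.75 and 3.92. All 6 leukocyte, 5 endothelial and 4 platelet markers measured were under background on every array, as was the platelet integrin chain ITGA2B. Of 6 stromal markers, COL1A2 was above it on all 4 arrays, LUM in Li-7 and ACTA2 in HEP-G2.

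The first question was which integrin chains each line carried. Of 20 measured chains, 9 were above background on both Li-7 arrays and 6 on both HEP-G2 arrays. With the 99th percentile of the negative controls as the limit, 7 were above it on the Li-7 control array and 3 on the HEP-G2 control array. The chains lost at that stricter limit were ITGA2 and ITGAE in both lines and ITGB5 in HEP-G2. The 95th percentile is used below. The lines shared ITGA2, a collagen-binding alpha chain, ITGA6, a laminin-binding alpha chain, ITGAV, an alpha chain of RGD receptors, ITGAE, best known from intraepithelial lymphocytes, ITGB1, the beta chain with the most partners, and ITGB5, a partner of ITGAV. Li-7 had in addition ITGA3, which binds laminin with ITGB1, ITGB4, the laminin-receptor chain of hemidesmosomes, and ITGB8, a partner of ITGAV known for activating latent TGF-beta. The other 11 chains were under background on all arrays, among them ITGA5, the classical fibronectin receptor chain, the leukocyte chains ITGA4, ITGB2 and ITGB7, and ITGB3.

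Of 24 textbook heterodimers, a list added after the values were seen, 23 had both chains measured. Both chains were above background for 7 pairs on each Li-7 array and for 4 on each HEP-G2 array. The pairs common to the lines were ITGA2 with ITGB1, ITGA6 with ITGB1, ITGAV with ITGB1 and ITGAV with ITGB5. The pairs ITGA3 with ITGB1, ITGA6 with ITGB4 and ITGAV with ITGB8 met the limit in Li-7 and not in HEP-G2. At the 99th percentile of the negative controls, ITGA2 with ITGB1 was lost on both control arrays and ITGAV with ITGB5 on that of HEP-G2. ITGAE stood at 9.38 to 10.14 on the arrays, while its partner ITGB7 stayed between 3.72 and 4.32, under background. These are transcript levels of bulk cultures, in which fewer expressing cells and less RNA per cell cannot be told apart, and the pairs were not measured as proteins.

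**Figure D1:**
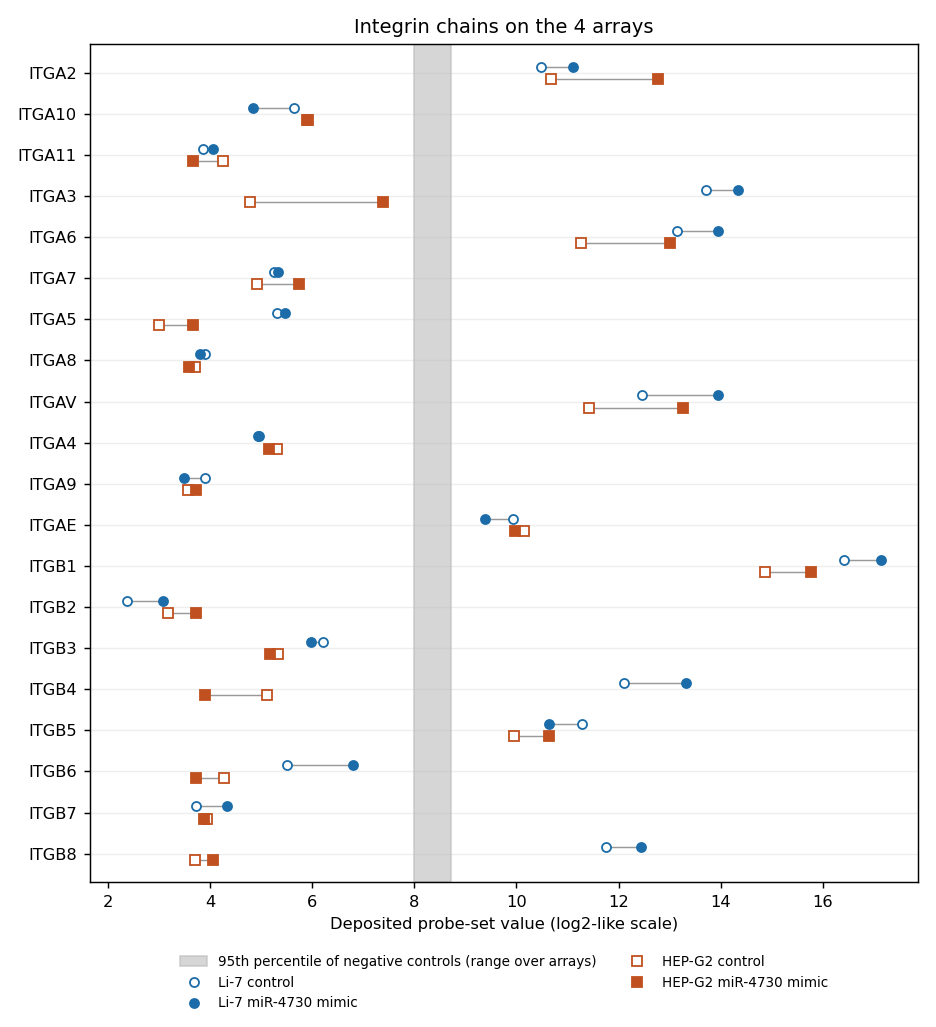
Deposited values (log2-like scale, x axis) of the 20 measured integrin chains on the Li-7 arrays (circles) and HEP-G2 arrays (squares), open for control and filled for mimic, with a line joining the arrays of one cell line. The grey band is the range of the background limit over the arrays, from 7.99 to 8.72. ITGA3, ITGB4 and ITGB8 lie right of it in Li-7 and left of it in HEP-G2.

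The lines were then compared with the line coefficient of a limma model with line and treatment, adjusted by Benjamini-Hochberg over all 12381 genes. Of the 31 tested members, 18 were higher in Li-7 (58.1%) and 2 were higher in HEP-G2 (6.45%). Among all tested genes 44.9% were called, 24.3% higher in Li-7 and 20.7% higher in HEP-G2. By kind, HEP-G2 was higher in 0 of 14 chains and 2 of 17 intracellular members, and Li-7 in 8 and 10. The median difference, Li-7 minus HEP-G2, was 0.85 over the chains and 0.87 over the intracellular members, against 0.03 over all genes. The model leaves each gene 1 residual degree of freedom, and with an ordinary t statistic 0 members were called. That statistic called 1 of all genes, and with treatment left out of the model 12 members were called.

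The lines stood furthest apart in 4 members. ITGA3 stood at 13.71 and 14.35 on the Li-7 arrays, control and mimic, and at 4.77 and 7.39 on the HEP-G2 arrays. ITGB4 stood at 12.10 and 13.33 on the Li-7 arrays and at 5.11 and 3.89 on the HEP-G2 arrays. ITGB8 stood at 11.76 and 12.45 on the Li-7 arrays and at 3.70 and 4.05 on the HEP-G2 arrays. In each of these chains both HEP-G2 values were under background and both Li-7 values far above it, so only a lower bound of the fold can be given. CAV1, the coat protein of caveolae that associates with integrins at the membrane, stood at 14.30 and 14.56 on the Li-7 arrays and at 5.47 and 6.10 on the HEP-G2 arrays, again under background in HEP-G2 alone.

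A bound was taken from the mean of the Li-7 arrays against the background limits of the HEP-G2 arrays, on the deposited scale. On that basis CAV1 was at least 71.1-fold higher in Li-7, ITGA3 at least 54.0-fold, ITGB4 at least 21.7-fold and ITGB8 at least 14.2-fold. In the limma fit on the measured values, the adjusted p was 1.73e-06 for CAV1, 1.87e-05 for ITGA3, 3.11e-05 for ITGB4 and 1.95e-06 for ITGB8. The sizes estimated by that fit rest on HEP-G2 values under background and are not given.

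The other chains called between the lines differed less. ITGB1 stood at 16.41 and 17.14 on the Li-7 arrays and at 14.88 and 15.77 on the HEP-G2 arrays (difference 1.45, SE 0.25, limma adjusted p = 0.00301), so its groups did not overlap. ITGA6 was higher in Li-7 by 1.42 (SE 0.30, adjusted p = 0.00815), although its HEP-G2 mimic value of 13.00 came close to the Li-7 control value of 13.15. For ITGAV the difference was 0.85 (SE 0.25, adjusted p = 0.0310), and the lines overlapped, since the HEP-G2 mimic value of 13.27 exceeded the Li-7 control value of 12.46. ITGB3 and ITGB6, another partner of ITGAV found in epithelia, were called higher in Li-7 but lay under background on every array, so no size is given. ITGA2 and ITGB5, present in both lines, were not called (differences -0.93 and 0.67, SE 0.37 and 0.35, adjusted p = 0.0821 and 0.167).

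Among the intracellular members, all 5 tested actin linkers were higher in Li-7. VCL, vinculin, which reinforces adhesions under tension, stood at 14.73 and 15.13 on the Li-7 arrays and at 12.02 and 12.75 on the HEP-G2 arrays (difference 2.55, SE 0.25, limma adjusted p = 0.000232). The actin crosslinkers ACTN1 and ACTN4 were higher by 1.94 and 1.47, TNS3, a tensin, by 0.79, and ZYX, zyxin, by 0.87. TGFB1I1, the paxillin relative Hic-5, stood at 10.38 and 11.80 on the Li-7 arrays and at 7.41 and 8.29 on the HEP-G2 arrays (adjusted p = 9.39e-05). Its HEP-G2 control value was under background and its HEP-G2 mimic value 8.29 against a limit of 8.20, so the size of the difference is uncertain. PXN, paxillin itself, was higher in Li-7 by 1.54, LIMS1, the PINCH adaptor that binds ILK, by 1.24, and PTK2, the focal adhesion kinase FAK, by 0.98. For these members SEs ran from 0.24 to 0.30.

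The members that were higher in HEP-G2 were a kinase and a kindlin. SRC, the tyrosine kinase that acts with FAK, stood at 10.19 and 10.32 on the Li-7 arrays and at 11.82 and 12.11 on the HEP-G2 arrays, without overlap (difference -1.71, SE 0.25, limma adjusted p = 0.00139). FERMT2, kindlin-2, stood at 10.63 and 12.02 on the Li-7 arrays and at 11.82 and 12.73 on the HEP-G2 arrays (difference -0.95, SE 0.26, adjusted p = 0.0232), with an overlap between the Li-7 mimic and HEP-G2 control arrays. ILK and PARVA, which form a complex with LIMS1, were not called, at 0.15 and 0.59 (SE 0.25 for each). BCAR1, the scaffold p130Cas, FERMT1, kindlin-1, and TLN2, talin-2, were not called either, and TLN2 was under background on all arrays. The calls for ITGAV, ZYX and TNS3 were lost after median centring (limma adjusted p = 0.0536, 0.0548 and 0.0745), that of TNS3 also after cyclic loess and with no filter (adjusted p = 0.0576 and 0.0509), and those of ITGAV, ITGA6, ITGB1, ITGB3, FERMT2, PTK2, TNS3 and ZYX with treatment left out.

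**Figure D2:**
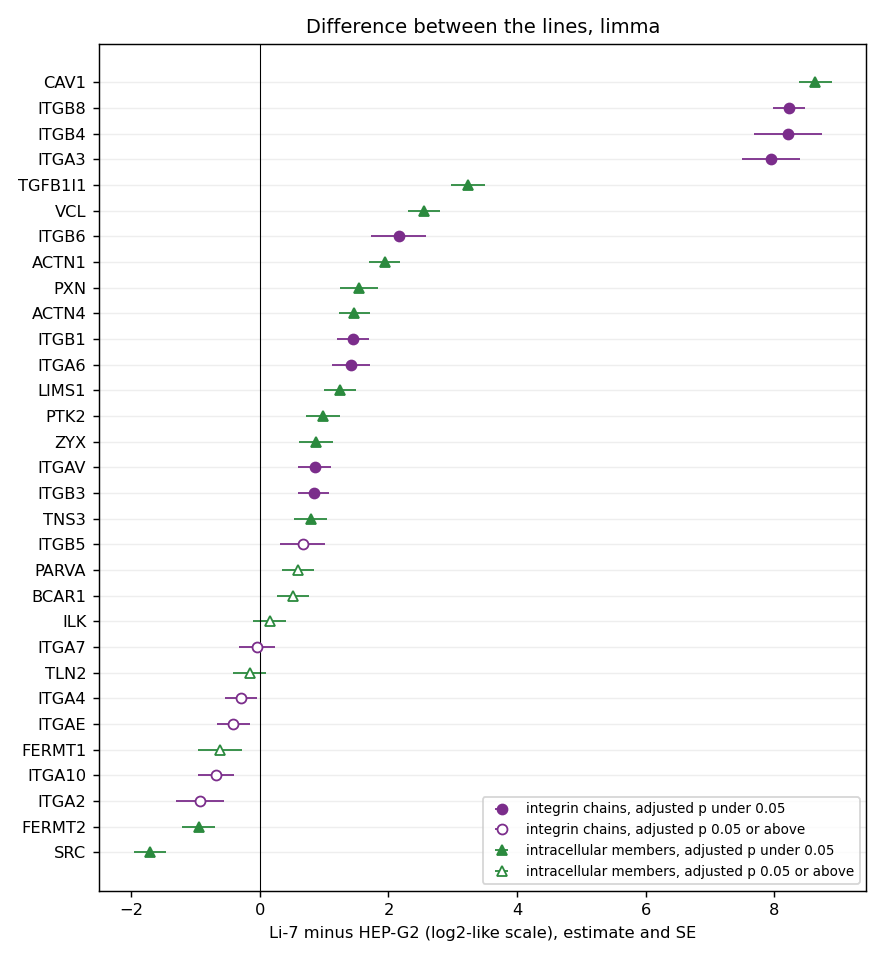
Difference between the lines, Li-7 minus HEP-G2 on the log2-like scale, for the 31 tested members, as the limma estimate with its SE. Filled symbols passed an adjusted p of 0.05. CAV1, ITGB8, ITGB4 and ITGA3 lie furthest to the right, and SRC, at -1.71, furthest to the left. The plotted size is uncertain for CAV1, ITGB8, ITGB4, ITGA3 and TGFB1I1, which had HEP-G2 values under background. It is uncertain also for ITGB6 and ITGB3, under background on every array.

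The second question was whether these genes differed between mimic and control in both lines. With the treatment coefficient of the same limma model, 0 of 31 members passed an adjusted p of 0.05, against 0.42% of all tested genes (0.0808% higher and 0.339% lower). At an unadjusted p of 0.05, 10 members were higher with the mimic (32.3%) and 0 lower, against 9.75% and 9.71% of all genes. In sign alone, 19 members were higher with the mimic in both lines (61.3%), 5 were lower in both and 7 had opposite signs, while of all tested genes 34.1% were higher in both, 31.0% lower in both and 34.9% opposite. Members of one adhesion complex are not independent of each other, and these shares describe the list and test nothing. The 0 is a property of the setting as well, since members were called in other settings, all of them higher with the mimic. After quantile normalization 5 were called (FERMT2, ILK, ITGA6, ITGAV and TGFB1I1). With an intensity trend in the variance 5 were (FERMT2, ILK, ITGA6, ITGAV and ITGB1), and with a filter at the median gene 3 (FERMT2, ILK and ITGAV). When genes under background on all arrays were left out, 1 was called (ITGAV).

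ITGAV came nearest to the threshold. It stood at 12.46 on the control and 13.94 on the mimic array of Li-7, and in HEP-G2 at 11.43 and 13.27. Both mimic values lay above both control values. The mean change was 1.66 (SE 0.25, limma adjusted p = 0.0589), and ITGAV was called in all 4 of the settings just named. Over all alternatives its adjusted p ran from 0.00977 to 1, the highest with the line left out of the model. Of its beta partners, ITGB1 was higher with the mimic in both lines and ITGB5 was not. ITGB5 was at 11.29 and 10.64 on the Li-7 arrays and at 9.95 and 10.64 on the HEP-G2 arrays, lower with the mimic in one line and higher in the other, and ITGB8 in Li-7 was at 11.76 and 12.45.

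Among the other alpha chains, none of which passed with the values as deposited and the filter above, ITGA6 and ITGA2 stood higher on the mimic array of each line. ITGA6 was called after quantile normalization and with the intensity trend (limma adjusted p = 0.0425 and 0.034). ITGA6 went from 13.15 to 13.95 in Li-7 and from 11.27 to 13.00 in HEP-G2 (mean change 1.26, SE 0.30, limma adjusted p = 0.108). ITGA2 went from 10.48 to 11.11 in Li-7 and from 10.67 to 12.78 in HEP-G2 (mean change 1.37, SE 0.37, adjusted p = 0.132). ITGA3 was higher by 0.63 in Li-7 and by 2.62 in HEP-G2, but both HEP-G2 values were under background, so that second difference has no reliable size. Whether the lines differ in these changes was not tested, as 1 array per line and treatment leaves no residual. ITGB1, which pairs with all of these chains, was higher by 0.73 in Li-7 and 0.89 in HEP-G2 (mean change 0.81, SE 0.25, adjusted p = 0.157).

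Other chains showed no common direction. ITGB4 was higher with the mimic by 1.22 in Li-7 and lower by the same amount in HEP-G2, where it lay under background (mean change 0.00, SE 0.53). ITGB8, measured above background in Li-7 alone, was higher there by 0.69. ITGAE was the chain above background that stood lower with the mimic in both lines (9.93 to 9.38 in Li-7, 10.14 to 9.98 in HEP-G2, mean change -0.36, SE 0.25, limma adjusted p = 0.488). ITGA4, ITGA7, ITGA10, ITGB3 and ITGB6 were under background on all arrays, with mean changes between -0.41 and 0.44.

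**Figure D3:**
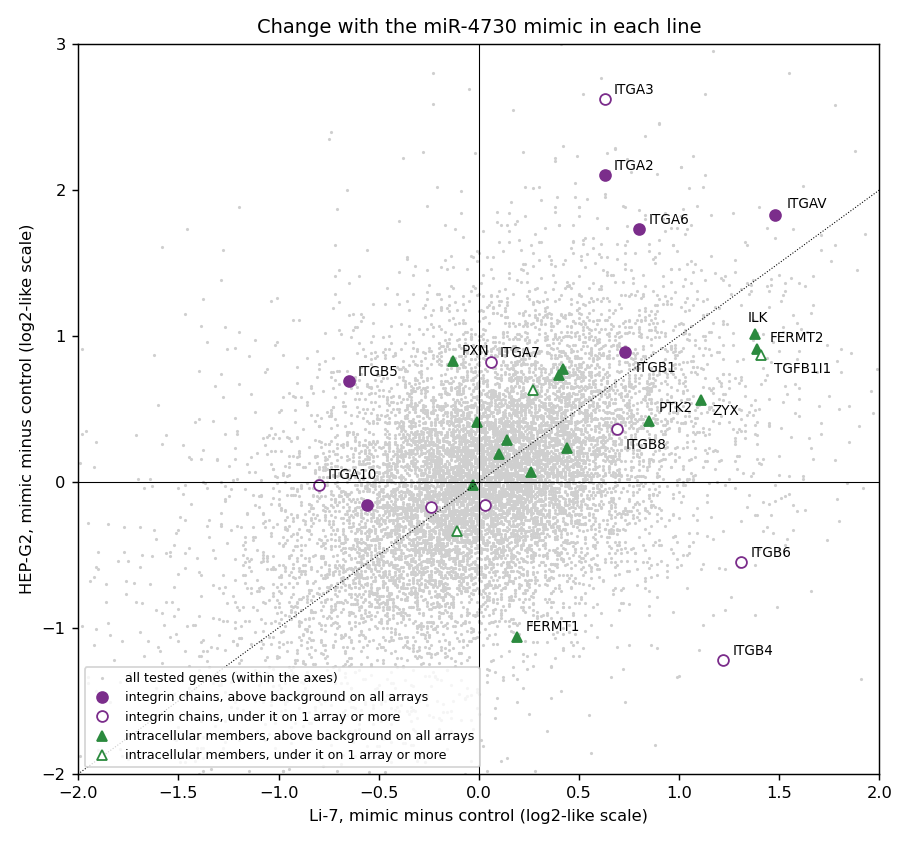
Difference between the mimic and control arrays (log2-like scale) in Li-7 (x axis) and HEP-G2 (y axis) for the 14 tested integrin chains (circles) and 17 intracellular members (triangles), over all tested genes in grey. Filled symbols were above background on all 4 arrays, and the dotted line marks equal differences. ITGAV, at 1.48 and 1.83, is the chain furthest along that line, and ITGB4, at 1.22 and -1.22, is the member furthest off it to the lower right.

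Inside the cell, the members with the largest differences sat in different parts of the adhesion. ILK, integrin-linked kinase, a pseudokinase scaffold that binds beta tails, went from 12.00 to 13.38 in Li-7 and from 12.03 to 13.04 in HEP-G2. Its control values were alike in the lines, and both mimic values exceeded them (mean change 1.19, SE 0.25, limma adjusted p = 0.0907). Its partners in the ILK complex, PARVA and LIMS1, stood at 0.33 and 0.17 (SE 0.25 for each). FERMT2 went from 10.63 to 12.02 in Li-7 and from 11.82 to 12.73 in HEP-G2 (mean change 1.15, SE 0.26, adjusted p = 0.0998). The other kindlin, FERMT1, was at 10.38 and 10.57 on the Li-7 arrays and at 11.63 and 10.57 on the HEP-G2 arrays, so that the mean changes of the kindlins had opposite signs (FERMT1 -0.43, SE 0.34, adjusted p = 0.532). FERMT1 is the epithelial kindlin and FERMT2 the one of most other tissues.

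TGFB1I1 was higher with the mimic by 1.41 in Li-7 and 0.87 in HEP-G2 (mean change 1.14, SE 0.26, limma adjusted p = 0.103), the HEP-G2 control value being under background. ZYX was higher by 1.11 and 0.56 (mean change 0.83, SE 0.26, adjusted p = 0.169) and PTK2 by 0.85 and 0.42 (mean change 0.63, SE 0.26, adjusted p = 0.241). BCAR1, VCL and CAV1 had mean changes of 0.60, 0.56 and 0.45 and PXN one of 0.35, with opposite signs in the lines for PXN. SRC, TNS3 and ACTN4 stood between 0.15 and 0.21 and ACTN1 at -0.03, each smaller than its SE. The sign for ACTN1 flipped after quantile normalization and cyclic loess. The actin crosslinkers ACTN1 and ACTN4, which differed between the lines, thus differed little with the mimic (SE 0.24 for each). The fit could miss changes well above that SE, since ITGAV, at 1.66 (SE 0.25), had a limma adjusted p of 0.0589.

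**Figure D4:**
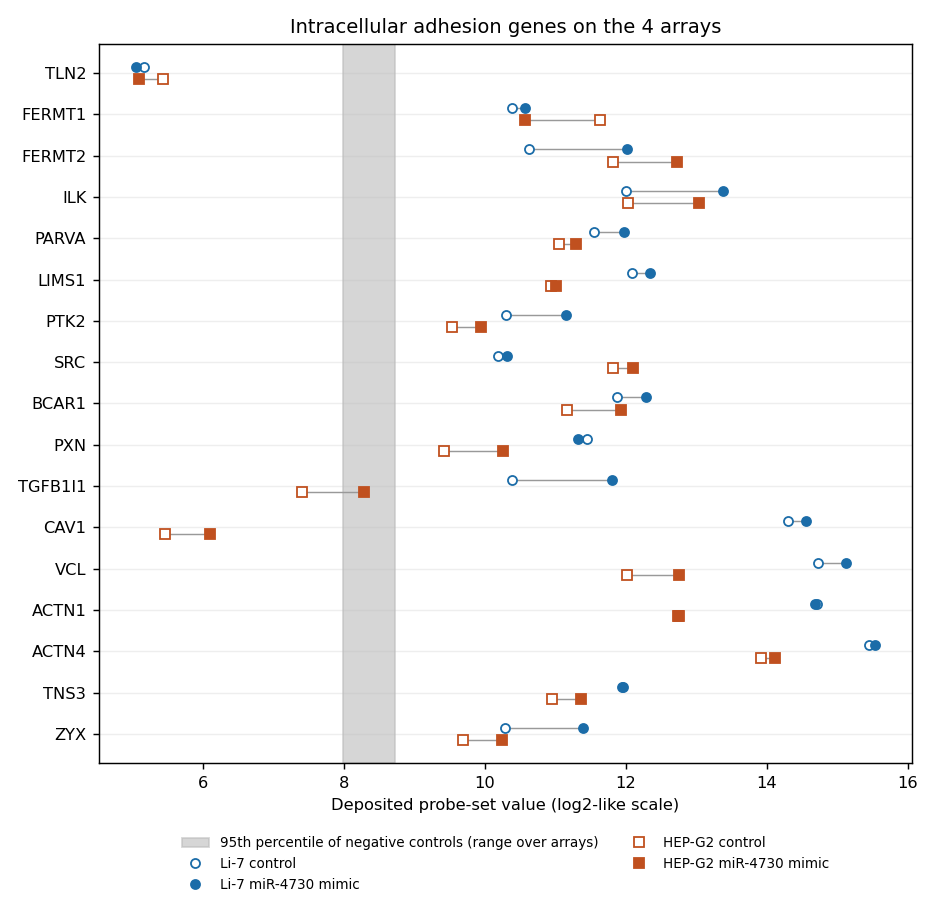
Deposited values (log2-like scale, x axis) of the 17 measured intracellular members on the Li-7 arrays (circles) and HEP-G2 arrays (squares), open for control and filled for mimic. The grey band is the range of the background limit over the arrays. ILK and FERMT2 lie further right with the mimic in both lines, while ACTN1 and ACTN4 differ by at most 0.19 within a line and lie further right in Li-7.

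Receptors and intracellular members were set side by side. The median of the mean change was 0.41 over 14 chains (range -0.41 to 1.66) and 0.35 over 17 intracellular members (range -0.43 to 1.19), against 0.03 over all 12381 genes. Among genes above background on all arrays, the medians were 1.04 over 6 chains and 0.34 over 14 intracellular members, against -0.01 over 5552 genes. The chains' median thus depended on the background limit and that of the intracellular members did not. In Li-7 the medians were 0.63 for the chains and 0.27 for the intracellular members, and in HEP-G2 they were 0.53 and 0.42.

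Counted at 2-fold in single arrays, with no test, 3 chains and 4 intracellular members were higher in Li-7 (22.6% of the members, against 3.72% of all genes) and 0 were lower (against 4.12%). The chains were ITGAV, ITGB4 and ITGB6, the last under background, and the intracellular members ILK, FERMT2, TGFB1I1 and ZYX. In HEP-G2, 4 chains and 1 intracellular member were at least 2-fold higher (16.1%, against 5.77%) and 2 members at least 2-fold lower (6.45%, against 6.28%). These were ITGA2, ITGA3, ITGA6, ITGAV and ILK on the high side and ITGB4 and FERMT1 on the low side, but ITGA3 and ITGB4 were under background on both HEP-G2 arrays. ITGAV and ILK were the members past 2-fold in both lines.

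By the Euclidean distance of the gene-centred values over the 4 arrays, the genes most like ITGAV of all tested were SAMTOR (distance 0.17), SH3BGRL3 (0.24), PARD6B (0.32), SAMD10 (0.35) and TUFT1 (0.36). Among the members, ITGA6 (0.75), ILK (0.91), ZYX (0.94) and ITGB1 (1.04) were nearest, at ranks 56, 127, 151 and 230 of all genes. SAMD10 was under background on all arrays, SAMTOR on both control arrays and TUFT1 on the HEP-G2 control array. A pattern over 4 arrays is short, and many genes share it.

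Other genes of the pathway gave a mixed picture. Of 55 tested adaptors outside the list, 0 passed with the mimic in either direction and the median change was 0.07. The line coefficient called 16 of these 55 toward Li-7 and 9 toward HEP-G2 (limma, adjusted p under 0.05). The corresponding shares were 58.1% and 6.45% for the members, and 24.3% and 20.7% for all tested genes. The adaptors thus lay nearer to the shares of all tested genes than the members did. The difference between these lists, both chosen with earlier results known, was not tested. The 4 adaptors with the largest mean changes with the mimic were PDLIM7 (1.25), FHL2 (1.24), FBLIM1 (1.01) and ENAH (0.85). These are LIM-domain and actin-assembly proteins of adhesions, and FBLIM1 was under background on all arrays. Of 30 tested integrin ligands 0 passed, 20 were higher in both lines, against 34.1% of all tested genes, and the median was 0.74, against 0.03. CCN1, a matrix protein that binds ITGAV receptors, had the largest mean change (2.06, SE 0.42, limma adjusted p = 0.0851), followed by VTN, vitronectin (1.49), COL4A1, a basement membrane collagen (1.47), and TNC, tenascin C (1.24). CCN1 was under background in HEP-G2 with the control (6.77), and VTN in Li-7 with the control (8.57). For COL4A1 and TNC every array but that of the Li-7 mimic was under background, and TNC differed by 2.65 in Li-7 and by -0.18 in HEP-G2.

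RefSeq promoter windows on GRCh38.p14 were available for 31 of the 41 members, and the 250 bases before the start were searched on both strands. The TEAD element CATTCC was found in 4 of 31 (12.9%, against 11.9% of 27305 promoters), the GC box GGGCGG in 19 (61.3%, against 42.3%), the AP-1 element TGANTCA in 2 (6.45%, against 6.60%), the SRF CArG box in 2 (6.45%, against 1.14%) and the TATA box TATAAA in 1 (3.23%, against 11.1%). The CArG box lay in FLNA, not analysed here, and in ITGB6, under background on all arrays. Matches describe these letters and not binding. Windows of 60 bases are shown for 2 members that hold the TEAD element and were above background on all arrays, ITGB1 (chr10:32958380-32958439, minus strand) and VCL (chr10:73997918-73997977, plus strand), with that element in capitals. They are shown also for the 2 intracellular members with the smallest p for the mimic, ILK (chr11:6603714-6603773, plus strand) and FERMT2 (chr14:52951241-52951300, minus strand), with GC boxes, some overlapping, in capitals.
ITGB1: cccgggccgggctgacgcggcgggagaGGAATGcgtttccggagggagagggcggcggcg
VCL: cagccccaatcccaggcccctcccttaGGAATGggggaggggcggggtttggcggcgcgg
ILK: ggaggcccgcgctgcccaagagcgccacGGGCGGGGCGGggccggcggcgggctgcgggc
FERMT2: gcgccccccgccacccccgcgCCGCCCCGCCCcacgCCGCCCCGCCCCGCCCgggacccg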

How the data were processed

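The authors deposited 1 table of summarised values for 24351 probe sets, read here as log2 because they span 1.48 to 18.31 and the arrays' quartiles are alike. Per the submitters' processing notes, the tools were Affymetrix Expression Console and Transcriptome Analysis Console. The background correction, normalization and log base used were not given in the sources used here, so folds are on the deposited scale. Gene names came from the platform annotation, updated through Entrez identifiers to RefSeq symbols. The table names no build, so no coordinates of genes or probe sets are given, and those printed belong to the RefSeq sequences.

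Values were used as deposited in R 4.3.3 with limma 3.58.1 (lmFit and eBayes, line plus treatment, Benjamini-Hochberg at 0.05), which left 1 residual degree of freedom per gene and 5.85 prior ones. The variance behind its p-values combines the disagreement between the lines in their mimic changes with a prior pooled over all genes. By those degrees of freedom the prior had the larger weight. Spread between cultures was not measured. The procedure was tested on simulated data. The members and lists were chosen with earlier results of these data known. All members were named, and up to 4 genes of each other list by size of change. Alternatives were other normalizations, filters, variance models and limits. Raising values under background to that limit, and the heterodimer list, were added after the data were seen.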

Additional observations from a re-analysis of the deposited data

Results flagged for a closer look

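In 7 tested members the mimic array lay on opposite sides of the control array in the lines, which was not tested because each line had 1 array per treatment. The HEP-G2 change minus the Li-7 change was -2.44 for ITGB4 (1.22 in Li-7, -1.22 in HEP-G2), -1.86 for ITGB6 (1.31 and -0.55) and 1.35 for ITGB5 (-0.65 and 0.69). It was -1.25 for FERMT1 (0.19 and -1.06), 0.96 for PXN (-0.13 and 0.83), 0.43 for TNS3 (-0.01 and 0.41) and -0.19 for ITGA4 (0.03 and -0.16). ITGB5, FERMT1, PXN and TNS3 were above background on all arrays. ITGB4 was above it in Li-7 alone, and ITGB6 and ITGA4 on none. Of all tested genes 34.9% had opposite signs, against 22.6% of the members.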

How the results depend on the processing

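No pairing of cultures within a line was possible because each group had 1 array, and the cell line was the block of the fit itself. The count of members called with the mimic, 0, moved to 5 after quantile normalization, 5 with an intensity trend, 3 with a filter at the median gene and 1 when genes under background on all arrays were left out. The calls over all genes, 52, became 465, 411, 366 and 200 in those settings, 23 after cyclic loess, 1 with an ordinary t statistic and 0 with line left out. Of the 52 calls 10 were higher with the mimic, and after quantile normalization 192 of 465 were. The 20 members called between the lines became 0 with an ordinary t statistic (1 of all genes, against 5563) and 12 with treatment left out, and lay between 17 and 22 otherwise, 19 with values under background raised to the limit. The receptor median of 0.41 moved to 0.81 without genes under background on all arrays. At 1.5-fold, 13 members were higher in Li-7 (7 at 2-fold) and 14 in HEP-G2 (5 at 2-fold). With the 99th percentile of the negative controls, 3 chains were above background on the HEP-G2 control array, against 6. Signs turned for ACTN1 with the mimic (0.02 after quantile normalization, 0.07 after cyclic loess), for ITGB4 (-0.03 after quantile normalization) and for the line difference of ITGA7 (0.01 after cyclic loess). Median centring moved the median line difference of all genes from 0.025 to -0.101. The stricter filters kept fewer genes, 8844 with the filter at the median gene and 8497 without genes under background on all arrays. The cause of these shifts was not tested. Single arrays and values near background limit every size given.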

Other observations

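Of 14 tested matrix receptors other than integrins, 10 were higher in Li-7 and 2 in HEP-G2 (limma, adjusted p under 0.05), against 24.3% and 20.7% of all tested genes. Chosen after their values were seen, the tetraspanin CD9, a membrane partner of integrins, stood at 15.36 and 15.67 on the Li-7 arrays and at 4.45 and 6.39 on the HEP-G2 arrays, and TSPAN8, another tetraspanin, at 11.90 and 11.69 against 3.45 and 3.79. CD44, the hyaluronan receptor, stood at 13.60 and 14.02 against 5.31 and 6.00, and CD47, which associates with ITGAV receptors, at 12.37 and 13.41 against 3.53 on both HEP-G2 arrays. All HEP-G2 values of these 4 genes were under background. CD151, the tetraspanin that binds laminin receptors, was above background on all arrays and higher in Li-7 by 2.52 (SE 0.25, adjusted p = 0.000221). With the mimic, 0 of the 14 passed, and the median of the mean change was 0.52.

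Of 30 tested integrin ligands, 15 were higher in Li-7 and 8 in HEP-G2 (limma, adjusted p under 0.05), against 24.3% and 20.7% of all tested genes. FN1, fibronectin, was higher in HEP-G2 (12.22 and 13.02 in Li-7, 16.05 and 16.76 in HEP-G2), while SPP1, osteopontin, and THBS1, thrombospondin-1, stood above background in Li-7 alone (SPP1 at 11.64 and 11.18, THBS1 at 13.22 and 14.33). These genes were chosen after their values were seen.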
